A study of Mus musculus with 8 samples.

Results

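Slc8a1 encodes NCX1, the sodium-calcium exchanger of the plasma membrane. In cardiomyocytes it is the main route by which calcium leaves the cell after each contraction, trading calcium ions for sodium ions that enter. Its gene is long, and most of its length is intron, with a large coding exon near the 5′ end between a pair of long introns. SRSF3 is a small SR protein that binds RNA and acts in splicing, 3′ end formation and mRNA export.

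The region described here is chromosome 17 from 81750001 to 82150000 (mm9), minus strand, a stretch of 400 kb that holds Slc8a1 and some sequence outside its signal on both sides. It was selected on the cDNA density of these same files, in which a dense stretch of 150 kb stands out between 87.727 and 237.727 kb from the 5′ edge of the signal. The level of that stretch is therefore given below as a description and was not tested. Replicate 1 listed 4921 minus-strand positions here out of 769652 in the whole library, and replicate 2 listed 12807 of 2093525. A list that merges 5 libraries held 20104 of 3846902.

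The series has 8 mouse samples, of which 6 adult hearts profiled by RNA sequencing are not analysed here. The other 2 are SRSF3 iCLIP libraries of neonatal cardiomyocytes from C57BL/6 mice (P0-1). The cells were transfected with 15 µg of modified mRNA for SRSF3 fused to GFP (21 µL Lipofectamine 2000) and received 100 mJ of UV light at 254 nm 48 h later. iCLIP precipitates the protein with its crosslinked RNA, here through GFP, and each cDNA ends next to the nucleotide where the protein was bound. Both libraries therefore show the tagged protein made from the added mRNA and not the cell's own SRSF3, from all cells of the plate. No immunoprecipitation without the tag and no RNA level of these cells was used here, so density of bound RNA cannot be told apart from abundance of the RNA, nor fewer expressing cells from less RNA per cell. Separate cultures are not named in the labels, and tests between the replicates cover the counting error of these 2 libraries.

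Replicate 1 was sequenced to 815414 cDNAs and the deeper replicate 2 to 2253688. The merged list held 4207555 cDNAs, and taking away both replicates left 1138453 cDNAs from 3 further libraries whose conditions the sources used here do not give, called the other libraries below. Counts are given as cDNAs per 1000000 cDNAs of the library (CPM), and for stretches of unequal length as CPM per kb.

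The gene model used for comparison is on another build, GRCm38 (GENCODE M21), and no coordinate was converted. Only lengths along the gene were set beside the signal. In that model the gene is 365273 nt long, has 6 transcripts and runs on the minus strand. In Slc8a1-202, a transcript of 11 exons, exon 1 has 69 nt and holds no coding sequence. An intron of 88670 nt follows, then exon 2 of 1830 nt with the start codon, then an intron of 202215 nt. The density of bound RNA rose into the dense stretch at about the distance of exon 2, and so the ends of that exon are shown as landmarks, from chromosome 17 of GRCm38, minus strand. Capitals mark the start codon.
First 150 coding bases, chr17:81649458-81649607: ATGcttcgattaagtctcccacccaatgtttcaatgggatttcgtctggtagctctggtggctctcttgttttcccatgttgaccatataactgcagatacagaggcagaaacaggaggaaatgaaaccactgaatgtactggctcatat
Last 150 bases before the long intron, chr17:81647809-81647958: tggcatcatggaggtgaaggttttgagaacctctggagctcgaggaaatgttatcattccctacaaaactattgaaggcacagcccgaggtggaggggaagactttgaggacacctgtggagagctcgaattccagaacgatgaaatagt

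Slc8a1 RNA took up a like share of both libraries. Replicate 1 held 5131 cDNAs on the minus strand of the locus, 0.629% of the library (95% Wilson interval 0.612 to 0.647%). Replicate 2 held 14002, or 0.621% (0.611 to 0.632%). The ratio of replicate 1 to replicate 2 was 1.01 (95% interval 0.981 to 1.05), and the difference was within counting error (two-sided exact binomial test, p = 0.437). The signal lay on 1 strand: the plus strand of the same 400 kb held 5 cDNAs in replicate 1, 23 in replicate 2 and 8 in the other libraries, so that 99.9%, 99.8% and 99.8% of cDNAs were on the minus strand. In the other libraries the locus held 3636 cDNAs, 0.319% (0.309 to 0.330%).

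Binding was spread over many nucleotides. Positions with a single cDNA made up 95.9% in replicate 1 and 91.9% in replicate 2, beside 96.9% and 95.9% over the whole libraries. No nucleotide of the locus held more than 4 cDNAs in replicate 1, 7 in replicate 2 or 5 in the other libraries.

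Read from 5′ to 3′, that is from high to low coordinates, the signal began at an edge that all libraries placed within 22 nt. The highest covered position of the signal was 82137705 in replicate 1, 82137727 in replicate 2 and 82137716 in the other libraries. The last kb inside the edge held 23, 79 and 29 cDNAs, and the 12.273 kb outside it held 1, 0 and 2. All distances below are counted from position 82137727, downstream along the transcript.

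The first section, 15.527 kb long, had a density of 17.1 and 16.9 CPM per kb in replicates 1 and 2 (mean 17.0 ± 0.121, SD, n = 2). It ended at an empty stretch of 6593 nt, from 82115608 to 82122200, in which no library had a cDNA. The limit that a count of 0 allows is 3 cDNAs in the stretch, or 3.68 CPM in replicate 1, 1.33 in replicate 2 and 2.64 in the other libraries. The signal then returned, and the section from 22.12 to 54.505 kb held 10.9 and 10.5 CPM per kb (mean 10.7 ± 0.283). It closed with another empty stretch of 6626 nt, from 82083223 to 82089848, again without a cDNA in any library. That gap is averaged into the level of the section. In the fit to 1 kb bins the signal returned at 13.5 CPM per kb over 26 kb in replicate 1 and at 14.5 over 22 kb in replicate 2. Both empty stretches are runs of more than 6 kb inside otherwise covered sequence. Whether reads could be placed uniquely there was not tested.

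After the second gap the level rose 36.8-fold in replicate 1 and 8.67-fold in replicate 2 against the thin stretch before it. The fit drew that stretch as 7 kb with 3 cDNAs in replicate 1, but as 11 kb with 54 cDNAs in replicate 2. These folds are therefore not measured against the same stretch. From 54.505 to 67.228 kb the level stood at 19.9 and 18.0 CPM per kb (mean 18.9 ± 1.34). It then fell 3.31-fold and 2.95-fold to 5.76 and 6.03 CPM per kb (mean 5.89 ± 0.187) over the next 21.504 kb. The place of that fall was poorly defined: the libraries put it at 82073661, 82072604 and 82073649, and both replicates summed put it at 82070500. This low section led up to the dense stretch.

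At the 5′ border of the dense stretch the density rose in all libraries, from a covered section and not from a gap. Replicate 1 went from 4.76 to 24.1 cDNAs per kb and replicate 2 from 14.4 to 62.3, which are rises of 5.06-fold and 4.31-fold. Placed to the nucleotide, the step was at 82049019 in replicate 1, 82048962 in replicate 2 and 82049014 in the other libraries, a spread of 57 nt. Its distance from the 5′ edge was 88.709 kb in replicate 1, 88.766 kb in replicate 2 and 88.714 kb in the other libraries. For both replicates summed, without the other libraries, it was 88.732 kb. In the GRCm38 model exon 2 begins 88.739 kb from the gene start. The summed step and that exon thus lay at distances that differ by 7 nt, less than the spread between libraries. Since the builds differ, the step is not assigned to the exon.

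**Figure D1:**
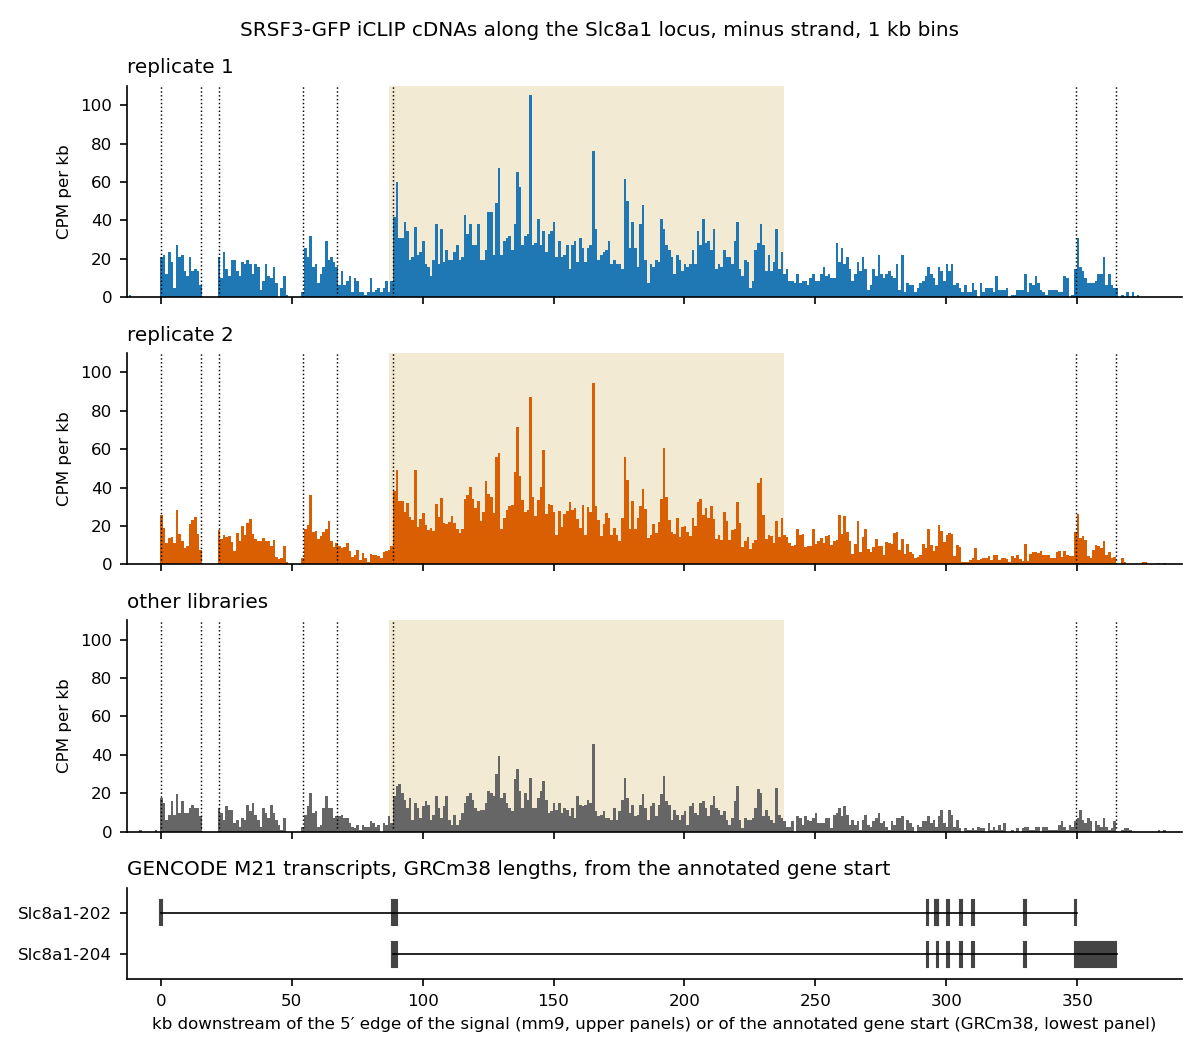
SRSF3-GFP iCLIP cDNAs per 1 kb bin along the minus strand of the Slc8a1 locus, in CPM per kb, in replicate 1, replicate 2 and the other libraries, against kb downstream of the 5′ edge of the signal. Shading marks the dense stretch, dotted lines the 8 described steps, and the lowest panel draws exons (boxes) and introns (lines) of a pair of GENCODE M21 transcripts at their GRCm38 lengths, without conversion of coordinates. The step at 88.732 kb stands at the 5′ end of the shading in all 3 upper panels, and both stretches without signal lie 5′ of it.

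The 1830 nt that follow the step, the length of exon 2, held 76 cDNAs in replicate 1, 182 in replicate 2 and 45 in the other libraries. The 1830 nt before the step held 9, 37 and 12. Downstream of these, the next 1830 nt held 46, 141 and 47. The first stretch was thus denser than the one before it by 8.44, 4.92 and 3.75 times. Against the next one it was denser in the replicates (1.65 and 1.29 times) but not in the other libraries (0.957 times). The level therefore did not drop back at the distance where exon 2 ends, and the high density went on at distances where the model has intron: the second stretch still held 30.8 and 34.2 CPM per kb, against 6.03 and 8.97 before the step.

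The dense stretch itself held 27.5 CPM per kb in replicate 1 (exact 95% Poisson interval 26.6 to 28.4) and 27.3 in replicate 2 (26.8 to 27.9), with a mean of 27.4 ± 0.111 (SD, n = 2). The flanks inside the locus held 8.67 and 8.45 CPM per kb. The ratio of dense stretch to flanks was 3.17 and 3.24 (mean 3.20 ± 0.0465), and 65.5% and 66.0% of the cDNAs of the locus lay in the dense stretch. The flanks include sequence outside the signal: with flanks taken only between the outer edges the mean ratio was 2.77, and without the 2 longest empty runs as well it was 2.60. Within the borders of the stretch, the 10 kb window just inside its 5′ end held 323 and 319 CPM and the window just outside 42.9 and 48.4. At the 3′ end the window just inside held 234 and 228 CPM and the one just outside 94.4 and 128.

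The 3′ border was a smaller change than the 5′ border. Both replicates placed a break at the very border in 1 kb bins, where the level fell 1.84-fold and 1.71-fold, under the 2-fold change needed for a step to be described. The single-nucleotide fit put it at 81898186 in replicate 1 and 81901103 in replicate 2, a distance of 2917 nt. Between its borders the dense stretch also declined. The decline from 5′ to 3′ was 0.04 on the log2 scale per 10 kb in replicate 1, in replicate 2 and in the other libraries (slopes of -0.04 each, mean of the replicates -0.0410 ± 0.0048, SD, n = 2). The 75 kb at the 5′ end of the dense stretch held 30.5 and 30.8 CPM per kb and the 75 kb at its 3′ end 24.5 and 23.8. Taken from the step at the 5′ end down to the next break at 81835001, a range that includes the fall at the 3′ border, the slope was -0.08 in all 3 (mean of the replicates -0.0783 ± 0.0013). Upstream of the step, over the sections before the dense stretch, it was -0.12, -0.12 and -0.14, but those sections did not fall in order: they held 17.0, 0, 10.7, 18.9 and 5.89 CPM per kb (means of the replicates), gaps included.

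Further 3′, beyond the dense stretch, the signal fell again. At 81835001 in replicate 1 and 81832001 in replicate 2, 3 kb apart and so just beyond the 2 kb allowed for a described step, the density went from 11.9 to 4.48 and from 12.0 to 4.13 CPM per kb. The other libraries had a break at 81833001, from 5.59 to 1.50 CPM per kb. These breaks stood 302.727, 305.727 and 304.727 kb from the 5′ edge. In the model the long second intron ends at exon 3, 292.784 kb from the gene start, and 6 further exons of Slc8a1-202 begin between 296.154 and 310.096 kb. These breaks thus lay at the distances of the exon cluster. The density was not even before them. In 1 kb bins it was already down to 2.45 and 3.11 CPM per kb in replicates 1 and 2 at 288.227 kb. It was back at 15.9 and 18.2 at 293.227 kb, near the distance where the long intron ends. Such changes over a few kb were not fitted as steps.

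A last rise came near the 3′ end. At 81788510 in replicate 1 and 81788358 in replicate 2 the density rose 2.56-fold and 2.41-fold, the smallest changes among the described steps. In the other libraries the single-nucleotide fit put it at 81788402, but their nearest break in 1 kb bins was 6000 nt away. The rise stood 349.37 kb from the 5′ edge for both replicates summed, and the last exon of Slc8a1-202 and Slc8a1-204 begins at 349.31 kb. The difference was 60 nt, against a spread of 152 nt between libraries. The section it opens, 15.365 kb long, held 12.2 and 10.2 CPM per kb (mean 11.2 ± 1.41). In Slc8a1-204, a transcript of 8 exons, the last exon has 15963 nt, while that of Slc8a1-202 has 544 nt. The length of the section is nearer to the longer form, but its density was not even. In 1 kb bins it was highest near the start, with 30.7 and 26.2 CPM per kb at 350.227 kb. It was 7.36 and 4.44 at 354.227 kb and 20.8 and 12.0 at 360.227 kb. Which form the bound RNA had was not tested.

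The signal ended with a fall of 34.3-fold and 18.4-fold. The libraries placed it at 81772009, 81773413 and 81773303, which is less exact than the 5′ edge (spread 1404 nt against 22 nt). The length from the 5′ edge to the fall was 364.735 kb for both replicates summed, beside a gene length of 365.273 kb in the model. Beyond it the remaining 22.992 kb of the locus held 9 cDNAs in replicate 1, 28 in replicate 2 and 8 in the other libraries.

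**Figure D2:**
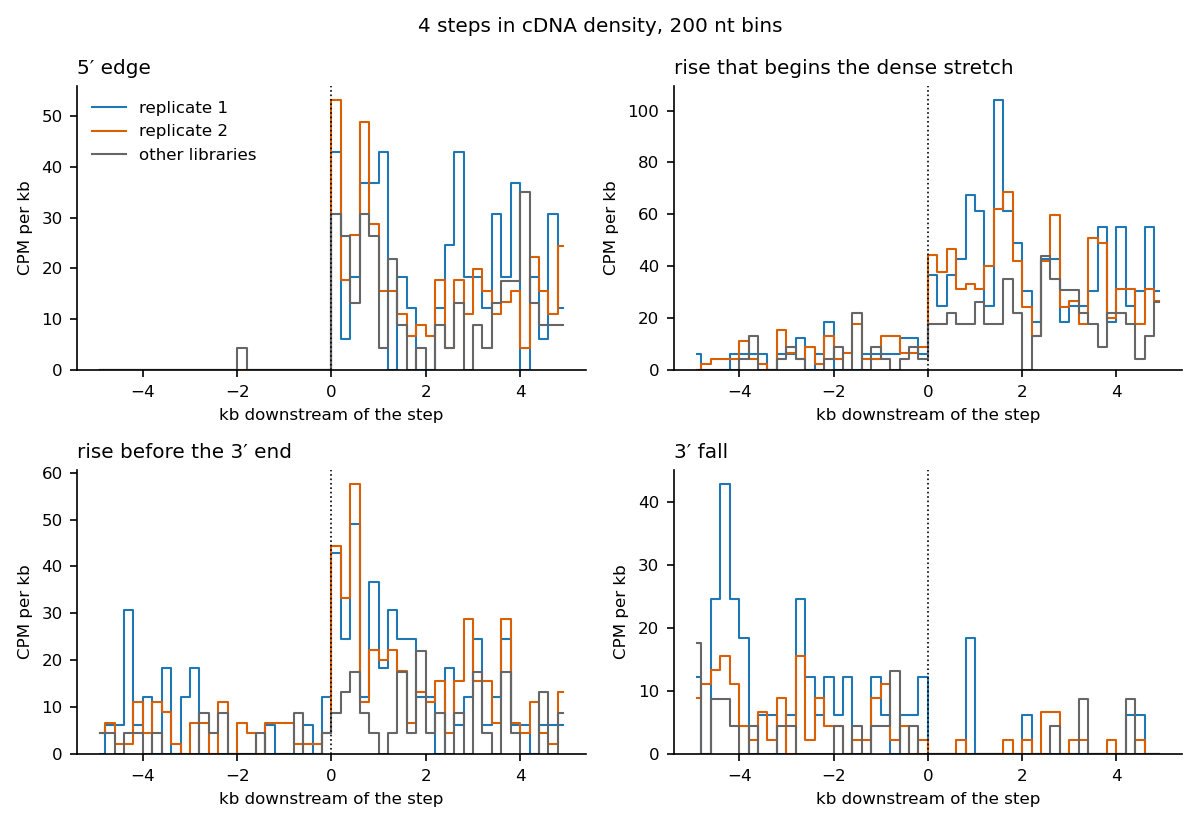
Density in 200 nt bins, in CPM per kb, within 5 kb of 4 of the steps, for replicate 1, replicate 2 and the other libraries. The rise that begins the dense stretch and the 5′ edge change within a few bins in every library, whereas the 3′ fall follows a level already under 20 CPM per kb in most bins and is spread over 1404 nt between libraries.

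Ranks were taken among all 268345 windows of 10 kb and strands with a cDNA in any library, of which 99223 had a cDNA in both replicates. The Slc8a1 windows were near the top, and since the locus was chosen for its density this rank is a description. By the lower of both replicates' CPM, 35 of the 40 windows of the locus were in the top 1% of the 268345. The 15 windows of the dense stretch ranked from 35 to 193. The median over the 99223 windows with a cDNA in both replicates was 3.11 CPM in the lower replicate. The window from 82000001 held 416 CPM in replicate 1 and 412 in replicate 2 (mean 414 ± 2.49) and ranked 35. The window from 81990001 followed with 378 and 397 CPM (mean 387 ± 13.4, rank 42). The windows from 82040001 (mean 321 ± 2.16), 82010001 (316 ± 17.4) and 81970001 (315 ± 11.9) ranked 56, 66 and 64 and did not differ from each other beyond the spread between replicates. The dense stretch as a whole ranked 6 of 33893 tiles of 150 kb.

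The shape of the locus did not differ detectably between the replicates. Of the 37 windows of 10 kb with at least 50 cDNAs, 0 differed at an adjusted p under 0.05 (exact binomial test on both library totals, with Benjamini-Hochberg adjustment over all windows). Over the whole genome 13 of 13920 windows were called, or 0.0934%. Without adjustment 2 of the 37 windows had an exact p under 0.05, the smallest being 0.00750 (adjusted p = 0.695). Over the genome 775 of the 13920 windows did, or 5.57%. Both counts of the locus are near these shares, so they show nothing particular to it. The log2 ratio of replicate 1 to replicate 2 in the 37 windows ran from -0.44 to 0.62, with a median of 0.03, beside a median of 0.01 over all windows tested. Within the locus, the share of cDNAs in the dense stretch (65.5% and 66.0%, two-sided Fisher exact test, adjusted p = 0.638) and the share of the dense stretch in its 5′-most 75 kb (55.5% and 56.4%, exact adjusted p = 0.524) also showed no difference beyond counting error.

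The other libraries had breaks within 1 kb of 6 of the 8 described steps, at a lower level. Both replicates together held 1.95 times the CPM of the other libraries over the locus (95% interval 1.88 to 2.02). Of the 37 windows, 34 were higher in the replicates at an adjusted p under 0.05 (exact binomial test). Over the genome 2923 of 21841 windows were called in that direction, or 13.4%. The locus was chosen for a density to which the replicates contributed most cDNAs, so nothing is read from this count. The log2 ratios in the 37 windows ran from 0.34 to 1.71 with a median of 1.04, beside 0.12 over all windows.

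That ratio was not even along the gene, a pattern noticed after the values were seen and not tested. In the first section it was 1.35 (exact 95% interval 1.16 to 1.57), from 16.9 CPM per kb in the replicates together and 12.6 in the other libraries. It was 1.57 (1.37 to 1.81) in the section between the gaps, 1.68 (1.41 to 2.01) in the next and 1.42 (1.14 to 1.78) in the low section before the dense stretch. In the dense stretch it was 2.03 (1.94 to 2.12), in the 65 kb beyond it 2.16 (1.94 to 2.40), in the 46.643 kb of low density that follow 2.40 (1.94 to 3.01), and in the last section 2.21 (1.76 to 2.82). Every covered section upstream of the step at 88.732 kb thus had a lower ratio than every covered section downstream of it. For the 5′ flank as a whole it was 1.50 (1.38 to 1.63). By section, the interval at 1.68 (1.41 to 2.01) overlapped that of the dense stretch (1.94 to 2.12). The dense stretch was chosen for a density to which the replicates contributed most cDNAs, so no support is drawn from these intervals. The 3 windows that were not called lay in the 5′ flank. Replicate 1 over replicate 2 showed no such change, with 1.04 (0.956 to 1.13) in the 5′ flank, 1.01 (0.967 to 1.05) in the dense stretch and 1.02 (0.944 to 1.10) in the 3′ flank. Library identifiers in the headers also separate the replicates, which share 1, from the other libraries, which carry others, so library preparation and any difference in condition cannot be told apart here.

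**Figure D3:**
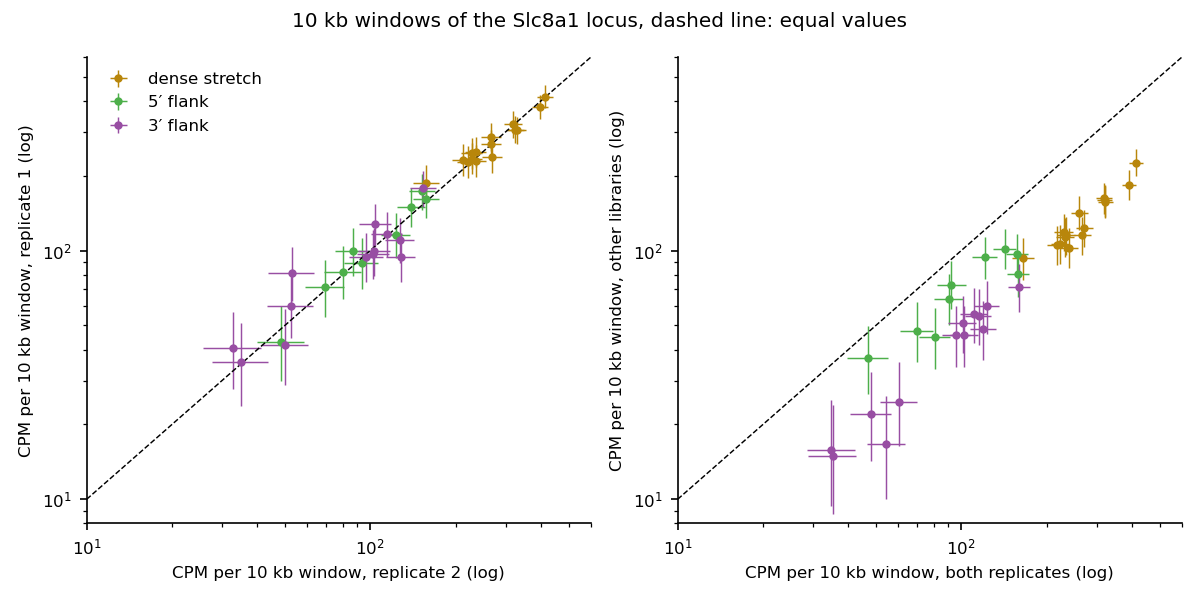
CPM per 10 kb window of the Slc8a1 locus on log axes: replicate 1 against replicate 2 (left) and the other libraries against both replicates together (right), for the 37 windows with at least 50 cDNAs. Bars are exact 95% Poisson intervals, colours mark the dense stretch and its flanks, and points follow the line of equal values on the left, while on the right all lie under it, by a log2 ratio of 0.34 to 1.71.

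Inside the dense stretch the density varied from kb to kb in a way that the libraries shared. Its 150 bins of 1 kb held 4 to 86 cDNAs in replicate 1 (median 20), 18 to 213 in replicate 2 (median 56) and 2 to 52 in the other libraries (median 14). The variance was 5.40, 14.9 and 4.06 times the mean, where counting error alone gives 1. As a description over these 150 bins, which share a transcript and its sequence, Pearson's r was 0.857 and Spearman's rho 0.803 between the replicates, 0.734 and 0.641 between replicate 1 and the other libraries, and 0.797 and 0.668 between replicate 2 and the other libraries. The signal was not confined to a few bins: it took 50, 50 and 48 of the 150 bins to reach 50% of the cDNAs.

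The fullest bin in replicate 2 began at 81972001, 165.226 kb from the 5′ edge, and held 62 cDNAs in replicate 1, 213 in replicate 2 and 52 in the other libraries. The bin from 81996001 held 86, 197 and 32, which made it the fullest of replicate 1. The bin from 82001001 held 53, 161 and 37. All 3 were at least 2 times the median bin of each library, as were the bins from 82008001, 82009001 and 81960001. The bin from 81945001 held 29, 137 and 33 and that from 81991001 held 28, 134 and 30, and these stood further above the median in replicate 2 and in the other libraries than in replicate 1 (1.45 and 1.40 times its median).

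At 100 nt the count of sites that recurred depended on which library chose them. The 10 strongest sites of the locus in replicate 2 all lay in the dense stretch and in 5 of its 1 kb bins, so they are not independent of each other. They held 28 to 44 cDNAs each in replicate 2, from 17 to 31 positions. Replicate 1 was above its own surroundings of 10 kb at 9 of the 10 sites by value, and at 4 with its 95% Poisson interval. When the 10 strongest sites of replicate 1 were read in the deeper replicate 2 instead, all 10 were above the surroundings with the whole interval. Summed over the 10 sites, replicate 1 held 76 cDNAs, 2.79 times its surroundings (2.20 to 3.50), and the other libraries held 56, or 3.00 times (2.27 to 3.90). In replicate 2, which chose the sites, the sum of 331 was 4.41 times the surroundings, a value raised by the choice.

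The site from 81996841 held 37 cDNAs in replicate 2 and 20 in replicate 1, but 2 in the other libraries. Of the 10 it was the strongest in replicate 1, 6.02 times the surroundings. The site from 82001883 held 40, 15 and 7 and was above the surroundings in all 3. The strongest site of replicate 2, from 81996597, held 44 cDNAs there but 7 in replicate 1 and 3 in the other libraries. The site from 81972104, with 28 in replicate 2, held 0 in replicate 1 and 4 in the other libraries. The remaining sites held 4 to 8 cDNAs in replicate 1 and 5 to 10 in the other libraries.

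**Figure D4:**
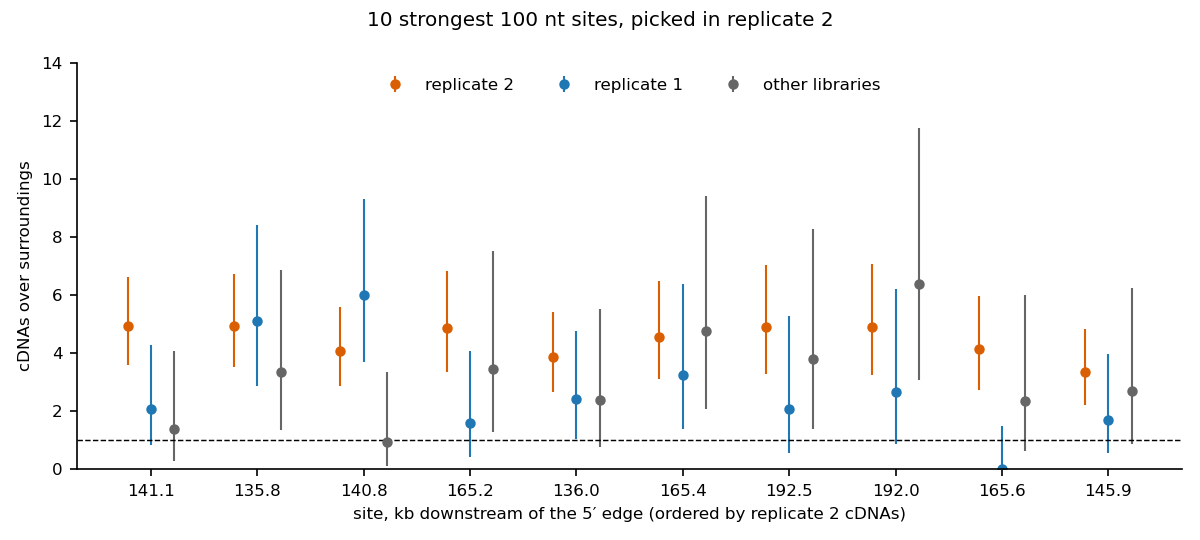
cDNAs at the 10 strongest 100 nt sites of replicate 2, divided by the mean of the surrounding 10 kb in the same library, ordered by the cDNAs of replicate 2 and named by kb downstream of the 5′ edge. Bars are exact 95% Poisson intervals and the dashed line is the level of the surroundings. Replicate 2 lies above the line at every site because it chose them, and replicate 1 lies above it with its whole interval at 4 of 10.

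Single nucleotides added little. The most used one, 81993145, held 4 cDNAs in replicate 1, 7 in replicate 2 and 0 in the other libraries, 0.0575% of the cDNAs of both replicates in the locus. The nucleotides 81945723 and 81994252 held 1 and 5 each, 81952479 held 1 and 4, and 81787892, in the last section, held 2 and 3. Of the 4921 positions of replicate 1, replicate 2 listed 612 at the same nucleotide, or 12.4% (Wilson 11.5 to 13.4%). Replicate 2 covered 5.25% of the nucleotides in the same 1 kb bins, so the share was 2.37 times the coverage. On the opposite strand 0 of the 4921 recurred, but replicate 2 listed only 22 positions there. That is too few for this 0 to serve as a control. Positions with 2 or more cDNAs in replicate 1 recurred more often, 48 of 202 or 23.8% (18.4 to 30.1%), than those with 1 cDNA, 12.0% (11.1 to 12.9%).

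Gaps in the dense stretch were short. The longest runs without a cDNA in either replicate were 397 nt from 81975149, 374 nt from 81971174, 337 nt from 81911828, 217 nt from 81962168 and 176 nt from 81951720. The other libraries had 3, 0, 0, 1 and 1 cDNAs in them. The run from 81971174 lies within 1 kb of the fullest bin of replicate 2.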

How the data were processed

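The authors' deposited iCLIP lists give a score for single nucleotides: the absolute value counts cDNAs, and a negative value marks the minus strand. Per the file headers these are cDNA hits on mm9 and Ensembl 59 was the annotation. Bowtie 0.10.1 is named in the submitters' processing notes. The handling of duplicate cDNAs and of reads with several matches is not stated in any source used here. The merged list sums 5 libraries, and the other libraries are that list minus both replicates. The headers give both replicates 1 library identifier and the 3 further libraries others.

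The absolute scores were summed per stretch and divided by the library total. Steps come from a piecewise constant Poisson fit to 1 kb bins (at most 15 segments, a limit that was reached, of at least 3 bins each), run apart in each library; 9 were placed within 2 kb in both replicates, and the 8 with a change of at least 2-fold in both are described. Each was then placed to the nucleotide by a single break within 2 kb. Slopes are from Poisson regression. Windows were tested by exact binomial tests where both libraries held at least 50 cDNAs together, and shares by Fisher's exact test in a family of 8. Intervals, limits of a 0 and p-values cover counting error only. Python 3.11.15, NumPy 2.4.6, SciPy 1.17.1, pandas 2.3.3 and statsmodels 0.14.6 were used, and the procedures were tested on simulated data.

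Named were the described steps, the 5 windows with the highest lower CPM, 10 sites of 100 nt, 5 nucleotides and the 5 longest empty runs of the dense stretch; fuller bins, breaks outside the rule and the ratio along the gene were added after their values were seen. The locus, its dense stretch and these rules were chosen with earlier results of these data known. Without an annotation of mm9 here, calcium handling genes, cell type markers and genes with a like level were not computed, and the cell type was not checked against its markers. Gene lengths and sequences are from GENCODE M21 (GRCm38).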

Additional observations from a re-analysis of the deposited data

How the results depend on the processing

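No window of the locus was called between the replicates under any setting tried (71 tested at 5 kb, 164 at 1 kb, otherwise 37). Over the genome 20 of 2721 were called in 1 kb windows and 23 of 13325 with distinct positions in place of cDNAs, against 13 of 13920. With distinct positions the dense stretch against flanks between replicates turned from a log2 odds of -0.0296 to 0.0158, neither past the threshold, and between the replicates and the other libraries it went from 0.16 (65.9% against 63.3%, Fisher exact adjusted p = 0.0120) to 0.12 (adjusted p = 0.182). The share at the strongest sites, lower in replicate 1 (log2 odds -0.68, exact adjusted p = 0.00130, a comparison biased because replicate 2 chose them), went to -0.40 (adjusted p = 0.182). The density of 27.4 CPM per kb became 25.1 with ends 10 kb outwards, 27.1 with distinct positions, 27.6 without mitochondrial cDNAs in the totals and 23.6 in the merged list. The ratio of 3.20 became 2.75 with ends inwards, 2.91 outwards and 3.10 with distinct positions, and, chosen after seeing the data, 2.77 and 2.60 with the narrower flanks. Without either replicate the density was 27.3 to 27.5 and the ratio 3.17 to 3.24. At most 8 segments left 3 of the 8 steps. Sites above surroundings in the library that did not choose them were 8 of 10 at 200 nt and, added after seeing the data, 10 when replicate 1 chose and the deeper replicate 2 was read, against 4. Recurrence was 52.5% within 5 nt (coverage 38.5%) and 68.7% within 10 nt (57.0%). By distinct positions the dense stretch ranked 3. Slopes kept their direction, from -0.0444 to -0.0377 without either replicate. No paired analysis was possible because there is 1 group, and leaving out a replicate leaves no comparison between them. Depth limits the sites: 4 to 8 cDNAs stand behind most of them in replicate 1.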
